A study of Homo sapiens with 24 samples.

Results

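The expression of 9 genes of the NF-kB system was followed: the transcription factor subunits NFKB1, NFKB2 and RELB, the inhibitor genes NFKBIA, NFKBIE and NFKBIZ, and TNFAIP3, TRAF1 and BIRC3, whose products work close to the receptors. They were taken by symbol from a list of pathway genes. Each symbol matched 1 of the 37247 gene ids of the deposited tables, and all 9 members passed the filter on low counts that left 14986 genes to test. The lowest estimated count of any member in any library was 313, for TNFAIP3.

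All cells were MDA-MB-231, an established line of triple-negative human breast cancer with mesenchymal features. Engineered lines carried doxycycline-inducible MRTF-A, a coactivator that senses actin and works with the DNA-binding factor SRF, as the wild-type protein (WT) or as a mutant titled dSAP or dSRF, and a control line was grown beside them. The names dSAP and dSRF are not spelled out in the labels, which also do not say what the control line carries or whether a line is 1 clone. All 4 lines, control included, received 1 ug/ml doxycycline over 72 h, and each was grown on plates, called 2D, or over matrigel, a gel of basement membrane proteins, called 3D, giving 8 groups of 3 libraries and 24 libraries. Replicates are not said to be separate cultures, so the p-values measure the spread between these libraries, which may be technical. RNA was measured in bulk, so that fewer cells making a transcript and less transcript per cell cannot be told apart.

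NF-kB proteins are dimers of related subunits that are held inactive in the cytoplasm by inhibitors of the IkB family. When a receptor of the tumour necrosis factor or interleukin-1 families is engaged, the IkB kinase complex marks these inhibitors for destruction, and the dimers enter the nucleus and bind short DNA elements called kB sites. Many of the first genes switched on encode the pathway's own brakes and subunits, among them NFKBIA, TNFAIP3, BIRC3, NFKB2 and RELB, so that their transcripts are often read as feedback genes. A slower, non-canonical branch processes the NFKB2 precursor into a partner for RELB. MDA-MB-231 is known for constitutive NF-kB activity.

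The kB-like letters in the promoters of the members are shown here because kB sites are the elements that NF-kB dimers bind. Whether NF-kB binds these matches was not measured in these data. RefSeq promoter windows (GRCh38.p14, 250 bases before to 50 after a start) were held for 7 of the 9 members, 13 windows in all, and not for RELB and NFKBIE. Each line is written 5′ to 3′ in the sense of the gene, with the match to the kB consensus in capitals. Of 13 matches, 1 or 2 per member are shown, and the others lie in NFKB2 and in another NFKBIZ window.
NFKB1: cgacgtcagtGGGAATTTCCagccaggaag
NFKB2, middle start: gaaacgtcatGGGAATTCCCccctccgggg
NFKB2, last start: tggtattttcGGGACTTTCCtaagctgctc
NFKBIA: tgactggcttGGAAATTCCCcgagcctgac
NFKBIZ: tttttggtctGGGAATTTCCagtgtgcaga
TNFAIP3, farther match: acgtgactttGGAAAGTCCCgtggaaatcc
TNFAIP3, nearer match: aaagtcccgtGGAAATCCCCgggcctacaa
BIRC3, farther match: tttgggtcatGGAAATCCCCgagtgggttt
BIRC3, nearer match: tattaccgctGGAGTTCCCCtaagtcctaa

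The capitals lie at chr4:102501310-102501319 for NFKB1 (position -49 from the start), chr10:102394471-102394480 and chr10:102395684-102395693 for NFKB2 (-107 and -21 from their starts), chr14:35404821-35404830 for NFKBIA (-81, a gene on the minus strand of the chromosome), chr3:101827767-101827776 for NFKBIZ (-223), chr6:137867192-137867201 and chr6:137867204-137867213 for TNFAIP3 (-67 and -55), and chr11:102317285-102317294 and chr11:102317349-102317358 for BIRC3 (-199 and -135). The kB consensus, GGGRNNYYCC (R is A or G, Y is C or T, N is any base), was searched on both strands. The matches of NFKBIA, TNFAIP3 and BIRC3 read as the consensus only on the strand opposite to the sense of the gene. It was found in 8 of the 13 windows, covering 6 of the 7 members, and in 11.3% of all 35116 promoter windows. TRAF1 had no match. The CArG box, the element bound by SRF, was found in 0 of the 13 windows and in 1.29% of all windows, which says only that these letters are not in these windows.

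In GENCODE 29 (GRCh38) the members lie on 8 chromosomes: NFKB1 (ENSG00000109320) at chr4:102501329-102617302, NFKB2 (ENSG00000077150) at chr10:102394110-102402529, RELB (ENSG00000104856) at chr19:45001430-45038198, NFKBIA (ENSG00000100906) at chr14:35401511-35404749, NFKBIE (ENSG00000146232) at chr6:44258166-44265788, NFKBIZ (ENSG00000144802) at chr3:101827991-101861022, TNFAIP3 (ENSG00000118503) at chr6:137867188-137883312, TRAF1 (ENSG00000056558) at chr9:120902393-120929173 and BIRC3 (ENSG00000023445) at chr11:102317450-102339403. TNFAIP3 overlaps an antisense gene, AL357060.1. Whether the authors' counting used strand is not stated, so reads of that pair may not have been told apart.

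MRTFA, the induced gene, was measured first because the genotype field of the labels disagrees with the titles for 16 of the 24 libraries. After scaling with edgeR's TMM factors, it stood at 28.8 to 39.1 CPM in the 6 libraries titled control. CPM is the count scaled to a fixed library total. The other 18 libraries held 664 CPM or more. This sets control apart from the lines carrying MRTF-A as titled. Among those libraries the level also differed by line. Every dSAP library held 8764.7 CPM or more, while no WT or dSRF library exceeded 4877.8 CPM. On plates WT ran from 4516.7 to 4877.8 CPM, above dSRF, which peaked at 3361 CPM. Over matrigel, WT lay above 3D dSRF 1 and below its partners. Such levels do not name the mutant or the culture, for which the titles were taken as given. The part of these MRTFA differences in the results was not tested. The library titled 3D dSRF 1 held the 664 CPM, against 4840.3 and 4857 CPM in 3D dSRF 2 and 3. Its log2 CPM values correlated with those of its partners at 0.946 and 0.950 across genes, where the partners correlated with each other at 0.984. Results of 3D dSRF are therefore given with and without it. In a model where all libraries share 1 estimate of spread per gene, leaving it out also narrowed the standard errors of comparisons in which it takes no part: for TNFAIP3 in 2D WT against control, from 0.32 to 0.07. Total counts ran from 13968773 to 23023300 per library. The defining MDA-MB-231 genes VIM (1331 to 2372 TPM, the deposited values scaled for transcript length and depth) and EGFR (80.2 to 133 TPM) were present in every library, and ESR1 was listed at 0 in 20 of 24. Luminal and epithelial markers summed to 507 to 1152 TPM in control, WT and dSAP libraries but to 6768 to 7279 TPM in 2D dSRF and 5306 to 10310 TPM in 3D dSRF, mostly KRT8 and KRT18. Mean FOXA1 was 13.8 TPM in 2D dSRF and 14.4 TPM in 3D dSRF, against at most 0.0925 TPM in the other groups. Mean EPCAM was 174 and 205 TPM there, against at most 46.8 TPM. Over all libraries GATA3 ran from 9.08 to 35.3 TPM and ERBB2 from 40.3 to 64.6 TPM. CDH1 reached at most 1.98 TPM, and PGR was listed at 0 in 22 libraries. The lymphoid and myeloid list summed to 39.4 to 66.1 TPM outside dSRF and to 140 to 218 TPM in dSRF, with CD68 at up to 208 TPM, while PTPRC was listed at 0 in 21 of 24 libraries and MS4A1 in all 24. Mean CD68 was 198 TPM in 2D dSRF and 166 TPM in 3D dSRF. Mean CD14 was lower in dSRF, at 5.36 and 4.47 TPM, against 16.5 and 7.31 TPM in control. Mean CSF1R was 13.3 TPM in 3D dSRF, against at most 5.26 TPM in the other groups. The fibroblast and endothelial list summed to 14.6 to 42.1 TPM outside dSRF, 27.4 to 53.0 TPM in 2D dSRF and 16.0 to 120 TPM in 3D dSRF, with DCN listed at 0 in 22 libraries. Mean COL1A1 was 31.9 TPM in 2D dSRF and 73.3 TPM in 3D dSRF, against 8.71 and 11.3 TPM in control. Mean VWF was 4.25 and 6.72 TPM in dSRF, against at most 0.0885 TPM in the other groups. Mean PDGFRB was lower in dSRF, at 2.17 and 1.26 TPM, against 15.7 and 7.07 TPM in control. The part of these shifts in the dSRF results was not tested.

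On the length-corrected TPM scale, the members spanned a wide range of levels in the plate-grown control line. NFKBIA, the main cytoplasmic inhibitor, was the most abundant at 204 TPM (mean of 3 libraries). NFKB2 followed at 116, BIRC3 at 88.5, NFKBIE at 68.2, RELB at 42.6, NFKBIZ at 42.4 and NFKB1 at 36.1 TPM. TNFAIP3 and TRAF1 were the lowest at 10.7 and 7.97 TPM. These ranks moved between groups: BIRC3 reached 225 TPM in 3D control but 62.9 TPM in 2D dSRF, while TRAF1 reached 52.0 TPM in 2D dSRF.

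Against control, the lines split the members. In WT and dSAP cells grown in 2D, NFKB1, RELB and NFKBIA transcripts fell while TNFAIP3 and TRAF1 transcripts rose. In dSRF cells, NFKB1, NFKB2, RELB, NFKBIA and TRAF1 rose in both cultures, and NFKBIZ and BIRC3 fell. Calls were made by edgeR's quasi-likelihood test where the p, adjusted over all genes by the Benjamini-Hochberg method, was under 0.05. In 2D WT, 6 of 9 members were called (2 higher, 4 lower), beside 39.3% of all genes tested. In 2D dSAP, 6 of 9 were called (2 higher, 4 lower), beside 32.9%, and in 2D dSRF 8 of 9 (6 higher, 2 lower), beside 66.0%. In 3D, 3 of 9 were called in WT (1 higher, 2 lower), beside 35.0%, and 3 in dSAP, all lower, beside 29.6% called of all genes and 13.1% called lower. In 3D dSRF 8 of 9 were called (5 higher, 3 lower), beside 66.4%. The shares in 3D WT and 3D dSAP are near those of all genes. Without the library 3D dSRF 1, the members called numbered 8 in 2D WT (51.9% of all genes), 8 in 2D dSAP (47.1%), 9 in 2D dSRF (72.0%), 5 in 3D WT (48.1%), 5 in 3D dSAP (44.0%) and 9 in 3D dSRF (72.8%). The median log2 fold change of the 9 members was -0.15 in 2D WT, -0.25 in 2D dSAP and 0.35 in 2D dSRF, and -0.06, -0.25 and 0.21 in 3D, where that of all genes tested lay between -0.02 and 0.02. The 3 comparisons of a culture share its control libraries.

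**Figure D1:**
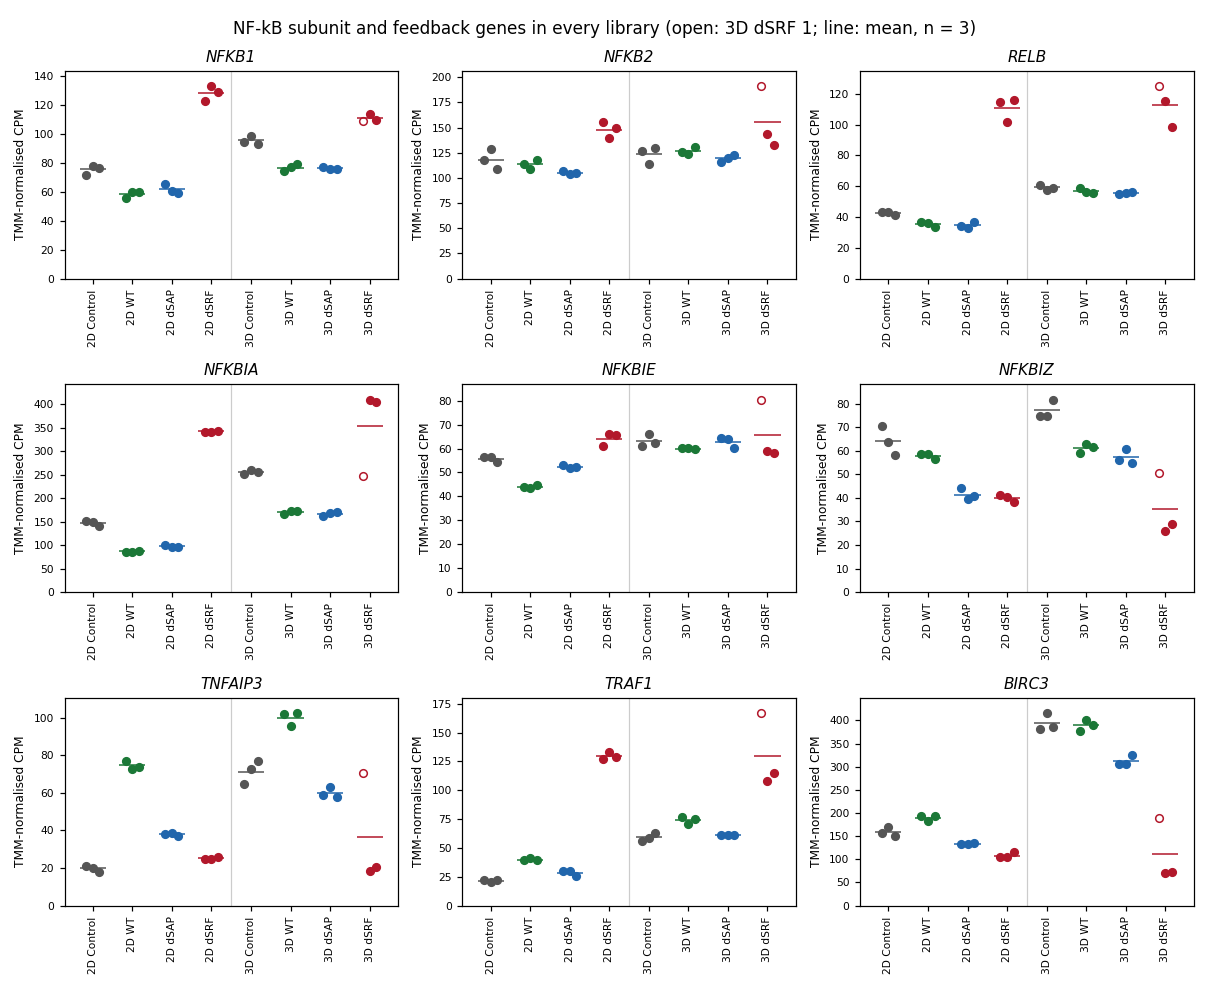
Each panel plots 1 gene, with normalised CPM on the vertical axis and the 8 groups (4 lines in 2D, then in 3D) on the horizontal axis. Points are libraries, the open point is 3D dSRF 1, and the line is the group mean of 3 libraries. RELB, NFKBIA and TRAF1 are highest in the dSRF groups, while BIRC3 is highest in 3D control and 3D WT, between 377 and 416 CPM.

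NFKB1 encodes a precursor that is processed into a DNA-binding subunit of the canonical dimer. In 2D it stood at 71.7, 77.8 and 76.5 CPM in control, 55.5, 59.5 and 60.0 in WT, 65.5, 60.2 and 59.3 in dSAP and 122, 133 and 129 CPM in dSRF. The WT and dSAP libraries all lay below the control libraries and the dSRF libraries all above them. In 3D it stood at 94.5, 98.6 and 93.1 CPM in control, 74.1, 77.0 and 78.9 in WT, 77.2, 75.8 and 75.7 in dSAP and 109, 114 and 109.6 CPM in dSRF, with the same order and no overlap of control with another line. The 2D log2 fold changes over control were -0.37 ± 0.05 in WT (± standard error of the fit, edgeR adjusted p = 5.28e-06), -0.29 ± 0.05 in dSAP (adjusted p = 1.21e-04) and 0.77 ± 0.05 in dSRF (adjusted p = 5.49e-11). In 3D they were -0.31 ± 0.05 in WT (edgeR adjusted p = 3.22e-05), -0.32 ± 0.05 in dSAP (adjusted p = 3.55e-05) and 0.21 ± 0.05 in dSRF (adjusted p = 5.70e-04). The 3D dSRF library that stands apart held 109 CPM of NFKB1, within 5 CPM of its partners, and the rise without it was 0.22 ± 0.05. Over all groups NFKB1 was highest in 2D dSRF, then in 3D dSRF and 3D control, and lowest in 2D dSAP and 2D WT, whose ranges overlap.

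NFKB2 encodes the precursor of the non-canonical partner subunit and can itself retain RELB in the cytoplasm. It was the steadiest of the subunits. Its 2D control libraries held 118, 128 and 108 CPM and its 3D control libraries 127, 114 and 130.1 CPM, and the WT and dSAP groups of each culture overlapped them, apart from 2D dSAP at 107, 104 and 105 CPM. The dSRF libraries held 155, 139 and 149 CPM in 2D and 191, 144 and 133 CPM in 3D, above every control library of their culture. NFKB2 rose by 0.32 ± 0.09 in 2D dSRF (edgeR adjusted p = 0.00525) and by 0.34 ± 0.09 in 3D dSRF (adjusted p = 0.00384). The 3D rise was 0.16 ± 0.06 (adjusted p = 0.0208) without 3D dSRF 1, which held the highest value of all 24 libraries. In WT and dSAP the differences from control ran from -0.17 to 0.04 and were not called. In 2D dSAP NFKB2 was called lower without 3D dSRF 1 (-0.17 ± 0.06, edgeR adjusted p = 0.0163). With only the control and dSRF libraries of 3D in the fit, the 3D dSRF rise was not called (adjusted p = 0.115).

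RELB encodes the activating subunit of the non-canonical dimer. It stood at 43.0, 43.5 and 41.4 CPM in 2D control, 36.7, 36.0 and 33.7 in WT, 34.2, 33.1 and 36.4 in dSAP and 114, 102 and 116 CPM in dSRF. The plate-grown dSRF cells therefore held over 2 times the level of any other plate-grown library. In 3D the control libraries held 61.0, 57.6 and 58.9 CPM, WT 59.0, 56.6 and 55.3, dSAP 54.7, 55.4 and 56.3 and dSRF 125, 116 and 98.3 CPM. The control range overlapped WT, while dSAP lay just below it and dSRF above it. RELB rose by 1.38 ± 0.07 in 2D dSRF, a 2.60-fold change (edgeR adjusted p = 2.65e-12), and by 0.93 ± 0.07 in 3D dSRF (adjusted p = 4.72e-10), or by 0.85 ± 0.06 without 3D dSRF 1. In 2D it fell by a smaller amount in WT (-0.26 ± 0.07, edgeR adjusted p = 0.00608) and in dSAP (-0.30 ± 0.07, adjusted p = 0.00287). In 3D the differences were -0.06 ± 0.07 in WT (adjusted p = 0.592) and -0.09 ± 0.07 in dSAP (adjusted p = 0.352), which were not called.

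NFKBIA encodes IkB-alpha, the inhibitor that is degraded first and resynthesised first. Its control libraries held 151, 150.1 and 139.9 CPM in 2D and 251, 259 and 255 CPM in 3D. WT held 86.3, 86.1 and 88.4 and 167, 173 and 172 CPM, and dSAP 101, 96.9 and 95.3 and 161, 168 and 170.5 CPM, in 2D and 3D, all below the controls of the same culture. The dSRF libraries held 341, 342 and 343 CPM in 2D and 247, 409.6 and 404 CPM in 3D, where the low library is 3D dSRF 1 and lies below the 3D control libraries. NFKBIA fell to 0.592 times the control level in 2D WT (-0.76 ± 0.12, edgeR adjusted p = 2.80e-05) and to 0.665 times in 2D dSAP (-0.59 ± 0.11, adjusted p = 5.12e-04). The falls in 3D were of like size, at -0.58 ± 0.11 in WT (edgeR adjusted p = 4.15e-04) and -0.61 ± 0.11 in dSAP (adjusted p = 3.23e-04). In 2D dSRF it rose 2.33-fold (1.22 ± 0.11, edgeR adjusted p = 1.77e-08). The 3D dSRF rise was 0.47 ± 0.11 (edgeR adjusted p = 0.00107), or 0.67 ± 0.04 without 3D dSRF 1. It was not called with only the libraries compared in the fit (adjusted p = 0.0994).

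NFKBIE encodes IkB-epsilon, a slower inhibitor, and moved little. It ranged from 43.5 CPM in a 2D WT library to 80.4 CPM in 3D dSRF 1. The 2D control libraries held 56.7, 56.6 and 54.3 CPM and the 2D WT libraries 43.7, 43.5 and 44.8 CPM, a called fall (-0.34 ± 0.08, edgeR adjusted p = 0.00286). In 2D dSRF it held 61.0, 65.9 and 65.6 CPM, a rise of 0.20 ± 0.08 (adjusted p = 0.0407). That rise was not called with no filter on low counts (edgeR adjusted p = 0.101), on log2(TPM + 1) (limma adjusted p = 0.120) or without 2D control 1, 2 or 3 or 2D dSRF 2 or 3 (edgeR adjusted p = 0.0703 to 0.118). In 3D no line differed from control by a called amount: -0.07 ± 0.08 in WT, -0.01 ± 0.08 in dSAP and 0.06 ± 0.08 in dSRF. The 3D dSRF libraries held 80.4, 59.0 and 58.0 CPM, and without the first of them the difference from control turned to -0.11 ± 0.05 (edgeR adjusted p = 0.0415).

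NFKBIZ encodes IkB-zeta, an atypical member of the inhibitor family that acts in the nucleus as a coactivator of secondary NF-kB targets. Within each culture its mean was highest in the control line, whose libraries held 70.4, 63.7 and 58.3 CPM in 2D and 74.9, 74.8 and 81.7 CPM in 3D. In 2D the control range overlapped that of WT. WT libraries held 58.6, 58.7 and 56.4 and 59.1, 62.7 and 61.6 CPM, and dSAP libraries 44.1, 39.3 and 40.6 and 56.1, 60.9 and 55.0 CPM, in 2D and 3D. The dSRF libraries held 41.3, 40.5 and 38.1 CPM in 2D and 50.5, 26.1 and 28.8 CPM in 3D, all below the controls of their culture. NFKBIZ fell in dSAP, with log2 fold changes of -0.63 ± 0.15 in 2D (edgeR adjusted p = 0.00316) and -0.43 ± 0.15 in 3D (adjusted p = 0.0371). The 3D dSAP call was lost with no filter (edgeR adjusted p = 0.0705), on log2(TPM + 1) (-0.27, limma adjusted p = 0.118) and with any 1 of the 6 libraries compared left out (edgeR adjusted p = 0.0574 to 0.114). NFKBIZ also fell in dSRF, at -0.68 ± 0.15 in 2D (edgeR adjusted p = 6.18e-04) and -1.13 ± 0.15 in 3D (adjusted p = 2.17e-06), or -1.49 ± 0.07 in 3D without 3D dSRF 1. In WT the differences were -0.15 ± 0.15 in 2D (edgeR adjusted p = 0.472) and -0.34 ± 0.15 in 3D (adjusted p = 0.0908). They were not called with all libraries and were called lower without 3D dSRF 1 (adjusted p = 0.0437 and 3.49e-05).

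TNFAIP3 encodes a ubiquitin-editing enzyme that shuts down signalling from the receptor complexes. Its 2D control libraries held 21.2, 20.1 and 18.0 CPM, the lowest mean of the 8 groups with all libraries. The mean of 3D dSRF without 3D dSRF 1 was 19.59 CPM, against 19.76 CPM in 2D control. The 2D WT libraries held 76.9, 73.0 and 73.8 CPM, dSAP 38.3, 38.9 and 36.8 and dSRF 24.8, 24.7 and 25.9 CPM, with no overlap between the 4 lines. The rise was 3.77-fold in 2D WT (1.92 ± 0.32, edgeR adjusted p = 7.92e-05) and 1.92-fold in 2D dSAP (0.94 ± 0.32, adjusted p = 0.0281), while 0.35 ± 0.32 in 2D dSRF was not called (adjusted p = 0.359). The 2D dSAP call was lost with no filter (edgeR adjusted p = 0.0717) and with any 1 of the 6 libraries compared left out (0.0541 to 0.0877). The same 2D dSRF difference was called without 3D dSRF 1, whose spread entered that test (edgeR adjusted p = 1.25e-04). In 3D the control libraries held 64.6, 72.4 and 77.0 CPM, WT 102, 95.6 and 102, dSAP 59.0, 62.9 and 57.7 and dSRF 70.4, 18.4 and 20.8 CPM. WT lay above control and dSAP below it, without overlap, but 0.49 ± 0.29 in WT (edgeR adjusted p = 0.223) and -0.25 ± 0.30 in dSAP (adjusted p = 0.576) were not called. Both were without 3D dSRF 1, at adjusted p = 7.26e-08 and 9.04e-04 by edgeR. In 3D dSRF TNFAIP3 fell (-0.96 ± 0.30, edgeR adjusted p = 0.00918). The value was -1.87 ± 0.07 without 3D dSRF 1, which held over 3 times the level of its partners and lay within the control range. The call was lost without 3D dSRF 2 (-0.64, edgeR adjusted p = 0.0511), without 3D dSRF 3 (-0.67, adjusted p = 0.0570) and with only the libraries compared (adjusted p = 0.169).

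TRAF1 encodes a signalling adaptor that binds TRAF2 and the ubiquitin ligases of the receptor complex. It held 22.5, 20.2 and 22.2 CPM in 2D control, 39.7, 40.9 and 39.2 in WT, 29.9, 29.8 and 26.1 in dSAP and 127, 133 and 129 CPM in dSRF. All 4 lines were apart. The 6.0-fold rise in 2D dSRF (2.58 ± 0.11, edgeR adjusted p = 3.43e-13) was the largest change of any member over control. TRAF1 also rose in 2D WT (0.88 ± 0.11, edgeR adjusted p = 3.76e-06) and in 2D dSAP (0.40 ± 0.12, adjusted p = 0.0107). In 3D, control held 56.4, 59.0 and 62.8 CPM, WT 77.1, 71.1 and 75.4, dSAP 61.6, 61.4 and 61.6 and dSRF 167, 108 and 115 CPM, and dSAP lay within the control range. The 3D rises were 0.33 ± 0.11 in WT (edgeR adjusted p = 0.0221) and 1.13 ± 0.11 in dSRF (adjusted p = 1.61e-08), or 0.91 ± 0.05 in dSRF without 3D dSRF 1. The 3D WT call was lost without 3D control 1 or 2 or 3D WT 1 or 3 (edgeR adjusted p = 0.0596 to 0.0877). In 3D dSAP the difference was 0.05 ± 0.11 (adjusted p = 0.777).

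BIRC3 encodes a ubiquitin ligase of the TNF receptor complex that also restrains the non-canonical branch. Its 2D libraries held 157, 169 and 150.3 CPM in control, 194, 183 and 193 in WT, 133, 133 and 136 in dSAP and 104, 104 and 116 CPM in dSRF, with no overlap between lines. Of these differences only that of dSRF was called, a fall (-0.56 ± 0.23, edgeR adjusted p = 0.0417). It was called without 3D dSRF 1 (adjusted p = 7.83e-11), but not with no filter (0.0884), on log2(TPM + 1) (limma adjusted p = 0.0624) or with any 1 of the 6 libraries compared left out (edgeR adjusted p = 0.0570 to 0.102). The 2D differences of WT, 0.26 ± 0.23 (edgeR adjusted p = 0.411), and dSAP, -0.25 ± 0.23 (adjusted p = 0.454), were called without 3D dSRF 1 at adjusted p = 3.94e-05 and 1.01e-04. In 3D, control held 381, 416 and 387 CPM, WT 377, 401 and 391, dSAP 307, 306 and 324 and dSRF 189, 70.8 and 72.1 CPM. Control and WT overlapped, with dSAP below them and dSRF lower still. The 3D dSRF level was 0.281 times that of control (-1.83 ± 0.24, edgeR adjusted p = 1.41e-06), or 0.181 times without 3D dSRF 1 (-2.47 ± 0.06). In 3D the difference was -0.02 ± 0.23 in WT (edgeR adjusted p = 0.974). In 3D dSAP it was -0.34 ± 0.23 (adjusted p = 0.298), which was called lower without 3D dSRF 1 (adjusted p = 5.87e-07).

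**Figure D2:**
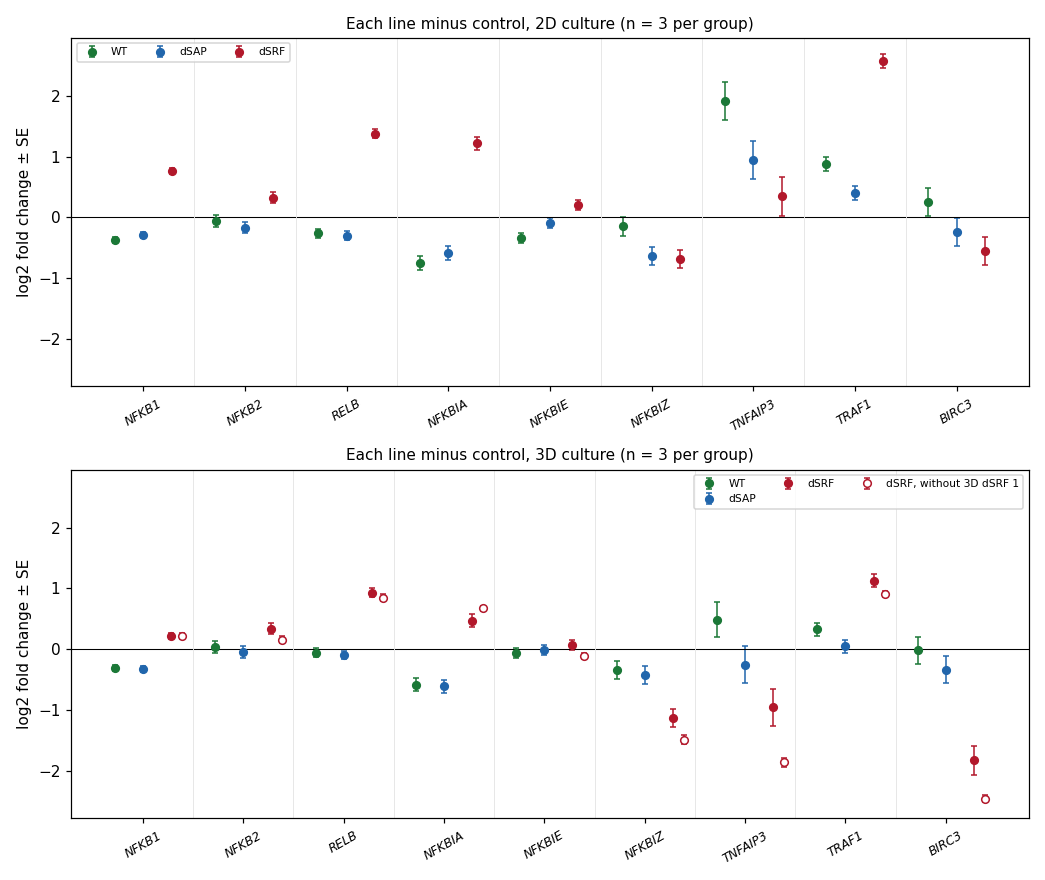
The log2 fold change over control of the same culture (vertical axis) is plotted for each of the 9 genes (horizontal axis) in WT, dSAP and dSRF, with 2D above and 3D below. Bars are standard errors of the edgeR fit over 3 libraries per group, and open points are the dSRF values without 3D dSRF 1. TRAF1 in 2D dSRF reaches 2.58 and BIRC3 in 3D dSRF -1.83, or -2.47 without that library.

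The induced lines were also compared with each other. Fewer members were called between dSAP and WT than between dSRF and either. In 2D, 3 of 9 members were called, all lower in dSAP, beside 12.8% of all genes called and 7.71% called lower: NFKBIZ (-0.48 ± 0.15, edgeR adjusted p = 0.0424), TNFAIP3 (-0.97 ± 0.30, adjusted p = 0.0413) and TRAF1 (-0.48 ± 0.11, adjusted p = 0.00661). The calls of NFKBIZ and TNFAIP3 were lost with no filter (edgeR adjusted p = 0.0872 and 0.107) and with any 1 of the 6 libraries compared left out (0.0763 to 0.126 and 0.0860 to 0.114), and that of NFKBIZ on log2(TPM + 1) (limma adjusted p = 0.0974). In 3D, edgeR called 0 of 9 members, beside 12.1% of all genes, and 2 (TNFAIP3 and TRAF1) had an unadjusted p under 0.05. DESeq2 and limma on log2 TPM called 0 too. TNFAIP3 had the largest difference there, at -0.74 ± 0.30 (adjusted p = 0.120), and its dSAP libraries, at 59.0, 62.9 and 57.7 CPM, lay below the WT libraries, at 102, 95.6 and 102 CPM. Leaving out 3D dSRF 1, 6 of 9 were called in 2D (27.7% of all genes) and 3 in 3D (27.2%), the latter TNFAIP3, TRAF1 (-0.28 ± 0.05) and BIRC3 (-0.32 ± 0.04), all lower in dSAP. NFKB1 and RELB were within 0.08 of WT in both cultures, and their differences were not called with or without that library.

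The dSRF line differed from the other 2 induced lines in most members, as it did in most genes tested. Against WT in 2D, all 9 members were called, beside 64.0% of all genes: NFKB1, NFKB2, RELB, NFKBIA, NFKBIE and TRAF1 higher in dSRF, and NFKBIZ, TNFAIP3 and BIRC3 lower. NFKBIA differed most upwards (1.98 ± 0.12, 3.93-fold, edgeR adjusted p = 2.92e-11), followed by TRAF1 (1.70 ± 0.11) and RELB (1.64 ± 0.07). TNFAIP3 differed most downwards (-1.57 ± 0.31, edgeR adjusted p = 2.36e-04), and its WT libraries held about 3 times the dSRF level. Against WT in 3D, 8 of 9 were called (5 higher, 3 lower), beside 65.9%, with BIRC3 at -1.81 ± 0.24, TNFAIP3 at -1.44 ± 0.30 and NFKBIZ at -0.79 ± 0.15 lower. Without 3D dSRF 1 these were -2.45 ± 0.06, -2.35 ± 0.07 and -1.16 ± 0.07. NFKB2 lost its call (0.30 ± 0.09 with that library, 0.12 ± 0.06 without it, edgeR adjusted p = 0.0670), leaving 7 of 9 called, near the 72.9% of all genes. In 2D without it all 9 members were called, beside 70.7%. With only the libraries compared in 3D, NFKB2 (edgeR adjusted p = 0.116) and TNFAIP3 (0.0648) were not called.

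Against dSAP in 2D, dSRF was higher in the 6 members called, NFKB1, NFKB2, RELB, NFKBIA, NFKBIE and TRAF1, beside 65.0% of all genes called and 33.6% called higher. The 6 of 9 called is near the share of all genes. TRAF1 differed by 2.18 ± 0.11 (edgeR adjusted p = 3.64e-12), NFKBIA by 1.81 ± 0.12 and RELB by 1.68 ± 0.07. NFKBIZ did not differ by a called amount (-0.05 ± 0.15), and its 2D libraries overlapped between dSAP and dSRF. In 3D, 8 of 9 were called (5 higher, 3 lower), beside 64.7%, and BIRC3 was lower (-1.49 ± 0.23, edgeR adjusted p = 1.62e-05). With only the libraries compared, NFKB2 (edgeR adjusted p = 0.0518), NFKBIZ (0.0654) and TNFAIP3 (0.314) were not called. TNFAIP3 also lost its call with RLE size factors in place of TMM (edgeR adjusted p = 0.0521) and with no filter (0.120). So it did without any 1 of the 3D dSAP libraries, 3D dSRF 2 or 3D dSRF 3 (0.0740 to 0.234). With 3D dSRF 1 left out, 8 of 9 were called in 2D (71.4% of all genes) and 8 of 9 in 3D (71.9%), with BIRC3 in 3D at -2.13 ± 0.06.

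Most of these transcripts were higher on matrigel than on plates in 3 of the 4 lines. In the control line TNFAIP3 rose 3.61-fold from 2D to 3D, TRAF1 2.74-fold, BIRC3 2.48-fold and NFKBIA 1.74-fold, and RELB and NFKB1 rose by smaller amounts. The log2 changes in control were 1.85 ± 0.32 for TNFAIP3 (edgeR adjusted p = 8.84e-05), 1.46 ± 0.11 for TRAF1 (adjusted p = 3.94e-09), 1.31 ± 0.23 for BIRC3 (adjusted p = 1.26e-04) and 0.80 ± 0.11 for NFKBIA (adjusted p = 1.09e-05). RELB rose by 0.47 ± 0.07 and NFKB1 by 0.34 ± 0.05 (edgeR adjusted p = 1.74e-05 and 9.63e-06). Thus 6 of 9 members were called in control, all higher, beside 47.4% of all genes called and 23.0% called higher. NFKB2 (0.07 ± 0.09), NFKBIE (0.17 ± 0.08) and NFKBIZ (0.27 ± 0.15) were not called, although NFKBIE and NFKBIZ were without 3D dSRF 1 (edgeR adjusted p = 0.00107 and 4.35e-04).

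In WT, 6 of 9 members were called, all higher in 3D, beside 50.0% called and 24.4% called higher, and in dSAP 7 of 9, all higher, beside 47.8% called and 24.2% called higher. BIRC3 rose by 1.04 ± 0.23 in WT and 1.22 ± 0.23 in dSAP, NFKBIA by 0.97 ± 0.12 and 0.77 ± 0.11, TRAF1 by 0.90 ± 0.11 and 1.11 ± 0.11, and RELB by 0.68 ± 0.07 and 0.68 ± 0.07. TNFAIP3 differed by 0.42 ± 0.30 in WT (edgeR adjusted p = 0.247) and 0.66 ± 0.30 in dSAP (adjusted p = 0.0832), neither called, although its 3D libraries lay above its 2D libraries in both lines. Both were called without 3D dSRF 1, while the calls of NFKBIE in dSAP (0.26 ± 0.08) and NFKBIZ in dSAP (0.47 ± 0.15) were lost without 2D dSAP 1 or 3D dSAP 1, and without 2D dSAP 2 or 3D dSAP 2 (edgeR adjusted p = 0.0506 to 0.0576). With 3D dSRF 1 left out the members called numbered 8 in control (58.6% of all genes), 8 in WT (60.8%) and 9 in dSAP (59.3%), all higher.

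In dSRF, 1 of 9 members was called between cultures, beside 17.0% of all genes called and 9.84% called lower. That member was NFKB1, which was lower in 3D (-0.21 ± 0.05, edgeR adjusted p = 0.00471). It was not called on log2(TPM + 1) (-0.12, limma adjusted p = 0.241) or with only the libraries compared (edgeR adjusted p = 0.332). The other 8 had log2 changes from -0.18 for NFKBIZ to 0.55 for TNFAIP3. Here the library that stands apart decides the picture. Without it 7 of 9 members were called (1 higher, 6 lower), beside 48.2% of all genes. BIRC3 was then at -0.60 ± 0.06 (edgeR adjusted p = 3.12e-09), NFKBIZ at -0.54 ± 0.08 (adjusted p = 1.90e-06), TNFAIP3 at -0.36 ± 0.08 (adjusted p = 5.43e-04), TRAF1 at -0.22 ± 0.05 (adjusted p = 0.00122), NFKBIE at -0.14 ± 0.05 (adjusted p = 0.0207) and NFKB1 at -0.20 ± 0.05. NFKBIA was higher in 3D, at 0.25 ± 0.04 (adjusted p = 2.73e-06). This fit has 2 libraries of 3D dSRF.

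**Figure D3:**
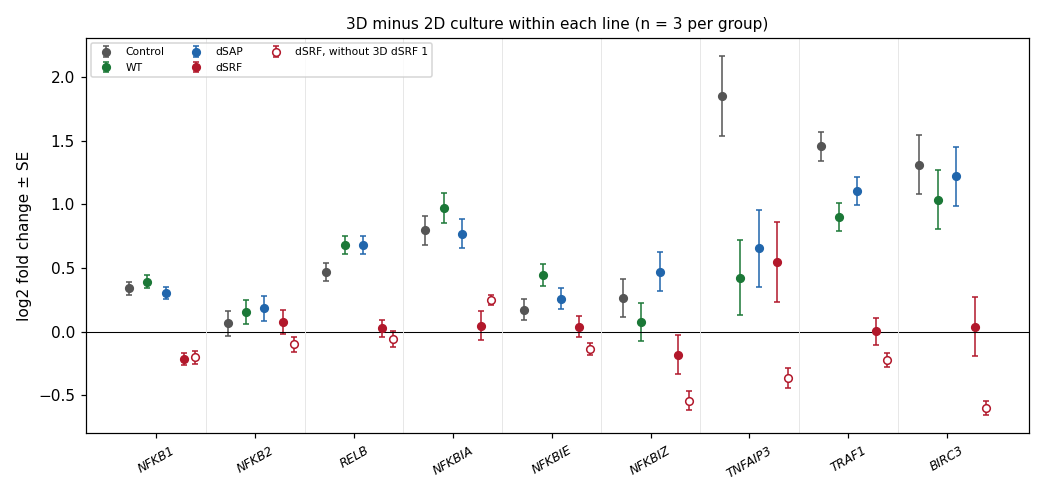
The log2 fold change of 3D over 2D (vertical axis) is plotted for each gene (horizontal axis) within each of the 4 lines. Bars are standard errors of the edgeR fit, and open points are dSRF without 3D dSRF 1. BIRC3 lies between 1.04 and 1.31 in control, WT and dSAP and at 0.04 in dSRF, or at -0.60 without that library.

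Whether the culture effect differed between a line and control was tested as an interaction, the 3D minus 2D change of the line less that of control. For WT, 2 of 9 members were called, both lower, beside 9.18% of all genes called and 4.96% called lower. TNFAIP3 rose less from 2D to 3D in WT than in control (-1.43 ± 0.43, edgeR adjusted p = 0.0431), and so did TRAF1 (-0.56 ± 0.16, adjusted p = 0.0289). The TNFAIP3 call was lost with no filter (edgeR adjusted p = 0.113) and with any 1 of the 12 libraries compared left out (0.0615 to 0.0950). The TRAF1 call was lost with library 2 or 3 of any of these 4 groups left out (0.0513 to 0.0817). For dSAP, edgeR called 0 of 9, as did DESeq2 and limma on log2 TPM, beside 2.34% of all genes. By edgeR 2 of them (TNFAIP3 and TRAF1) had an unadjusted p under 0.05, with TNFAIP3 at -1.20 ± 0.43 (adjusted p = 0.189). For dSRF, 6 of 9 were called, all lower, beside 29.2% of all genes called and 14.6% called lower. These were TRAF1 (-1.45 ± 0.15, edgeR adjusted p = 8.50e-07), TNFAIP3 (-1.30 ± 0.44, adjusted p = 0.0326), BIRC3 (-1.27 ± 0.33, adjusted p = 0.00622), NFKBIA (-0.75 ± 0.16, adjusted p = 0.00144), NFKB1 (-0.55 ± 0.07, adjusted p = 5.19e-06) and RELB (-0.45 ± 0.10, adjusted p = 0.00186). The TNFAIP3 call was lost with no filter (edgeR adjusted p = 0.0894), with only the libraries compared (0.160) and without 2D or 3D control 2 or 3, any of the 2D dSRF libraries, or 3D dSRF 2 or 3 (0.0526 to 0.0725). With only the libraries compared BIRC3 lost its call as well (0.0727). Without 3D dSRF 1 these 6 stayed called, with TNFAIP3 at -2.21 ± 0.10, BIRC3 at -1.91 ± 0.07 and TRAF1 at -1.67 ± 0.08, and 8 of 9 members were called for dSRF (43.8% of all genes), 5 for WT (23.8%) and 2 for dSAP (11.4%). The 3 interactions share the control libraries, and TNFAIP3 in control moved from 19.8 ± 1.62 CPM in 2D to 71.3 ± 6.27 CPM in 3D (mean ± SD, n = 3).

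The rest of the pathway was read from 4 lists of other genes, whose counts stand beside the shares of all genes called, 39.3% in 2D WT, 32.9% in 2D dSAP, 66.0% in 2D dSRF, 35.0% in 3D WT, 29.6% in 3D dSAP and 66.4% in 3D dSRF. Without 3D dSRF 1 the share of all genes called in 3D dSRF was 72.8%. Single genes are named by a rule, up to 4 called genes of lowest p per list and comparison. A gene may therefore also differ in a comparison for which it is not named. Of the 9 other subunits, inhibitors and kinases, all were tested. RELA, the main activating subunit of the canonical dimer, rose in dSRF by 0.47 ± 0.04 in 2D and 0.76 ± 0.04 in 3D, and BCL3, a nuclear IkB protein, fell (-1.06 ± 0.09 and -1.14 ± 0.09). IKBKG, the scaffold of the IkB kinase complex, rose in dSRF by 0.70 ± 0.10 in 2D and 1.15 ± 0.10 in 3D, and NFKBIB, another cytoplasmic inhibitor, by 1.06 ± 0.10 in 2D. In all, 5 of 9 rose and 1 fell in 2D dSRF (median 0.43, all genes 0.02), and 4 rose and 3 fell in 3D dSRF (median 0.29, all genes 0.02). With 3D dSRF 1 left out, 5 rose and 3 fell in 3D (median 0.25), and RELA was at 0.75 ± 0.04, BCL3 at -1.05 ± 0.08 and IKBKG at 1.29 ± 0.06. In 2D WT 1 rose and 4 fell, with CHUK, an IkB kinase, at 0.29 ± 0.08 and BCL3 at -0.48 ± 0.09, and in 2D dSAP 1 rose and 1 fell. In 3D WT 2 rose and 1 fell, and in 3D dSAP 2 rose and 0 fell.

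Of 33 adaptors and regulators, all tested, 12 rose and 5 fell in 2D WT, 12 rose and 3 fell in 2D dSAP, and 16 rose and 12 fell in 2D dSRF (medians 0.12, 0.12 and 0.17), beside 39.3%, 32.9% and 66.0% of all genes called. In 3D 8 rose and 5 fell in WT, 6 rose and 5 fell in dSAP, and 16 rose and 9 fell in dSRF. TRAF5, a receptor adaptor, rose in WT (1.81 ± 0.08 in 2D, 2.25 ± 0.08 in 3D) and dSAP (1.40 ± 0.08 and 1.58 ± 0.08), and was lower in dSRF than in WT (-2.02 ± 0.08 and -2.81 ± 0.08). TANK, a TRAF-binding regulator, rose beside it in WT (0.99 ± 0.07 and 1.10 ± 0.07) and dSAP (0.87 ± 0.07 and 1.05 ± 0.07). RIPK2, the kinase that couples NOD receptors to NF-kB, rose in dSRF by 2.31 ± 0.09 in 2D and 2.59 ± 0.09 in 3D. BIRC2, the close relative of BIRC3, fell in 3D dSRF (-0.61 ± 0.06) and rose from 2D to 3D in control (0.67 ± 0.06). Leaving out 3D dSRF 1, 15 rose and 11 fell in 3D dSRF, where RIPK2 was at 2.73 ± 0.05 and BIRC2 at -0.51 ± 0.04, and TRAF5 was at -2.81 ± 0.09 against WT.

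Of 29 ligands and receptors that can activate the pathway, 22 were tested. TNF and LTA matched no gene id of the deposited tables by symbol, so their levels are not known here. The other genes not tested did not pass the filter on low counts. In 2D 9 rose and 2 fell in WT, 7 rose and 2 fell in dSAP, and 7 rose and 8 fell in dSRF, beside 39.3%, 32.9% and 66.0% of all genes called. The 15 of 22 called in 2D dSRF is near the share of all genes. In 3D 9 rose and 4 fell in WT, 6 rose and 3 fell in dSAP, and 10 rose and 8 fell in dSRF. TNFSF10, the death ligand TRAIL, fell in 2D WT (-1.22 ± 0.10), 2D dSAP (-1.15 ± 0.10) and both dSRF groups (-2.69 ± 0.11 in 2D, -2.40 ± 0.11 in 3D), while its receptor gene TNFRSF10A rose in dSRF (1.47 ± 0.05 and 1.81 ± 0.06). By mean TPM, TNFSF10 was also lower in 3D WT (49.5) and 3D dSAP (47.8) than in 3D control (74.6). TNFRSF1B, a TNF receptor that uses the TRAF adaptors, fell in WT (-1.14 ± 0.10 and -1.21 ± 0.10) and dSRF (-1.03 ± 0.10 and -1.81 ± 0.10). Its mean TPM was also lower in dSAP than in control, at 14.7 against 18.8 in 2D and 26.9 against 36.9 in 3D. IL18, a cytokine of the interleukin-1 family, fell from 2D to 3D in control (-1.89 ± 0.12) and rose over control in 3D dSRF (2.14 ± 0.12). With 3D dSRF 1 excluded, 10 rose and 11 fell in 3D dSRF (median -0.15, against 0.02 with it), and the values were -2.45 ± 0.13 for TNFSF10, 1.75 ± 0.05 for TNFRSF10A, -2.01 ± 0.07 for TNFRSF1B and 2.29 ± 0.10 for IL18.

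Of 42 genes widely listed as NF-kB targets outside the 9 members, 35 were tested. SOD2 matched no gene id by symbol, and the other genes not tested did not pass the filter on low counts. In WT and dSAP more of them fell than rose: 12 fell and 8 rose in 2D WT (median -0.21, all genes -0.02), 14 fell and 3 rose in 2D dSAP (median -0.42, all genes -0.01), 12 fell and 8 rose in 3D WT (median -0.31), and 16 fell and 4 rose in 3D dSAP (median -0.39). In dSRF 15 rose and 8 fell in 2D (median 0.48), where the 23 of 35 called is near the 66.0% of all genes, and 19 rose and 9 fell in 3D (median 0.65). The 3D dSRF split rests on the library 3D dSRF 1: without it 16 rose and 15 fell (median 0.08). C3, a complement component, fell in all 6 comparisons with control, from -2.78 ± 0.10 in 2D dSRF to -1.36 ± 0.10 in 3D dSAP. GCH1, an enzyme of tetrahydrobiopterin synthesis, rose in WT (1.63 ± 0.07 in 2D, 1.17 ± 0.07 in 3D) and 2D dSRF (2.31 ± 0.07). By mean TPM it was also higher in 3D dSRF (69.0) and 3D dSAP (39.2) than in 3D control (23.0), and in 2D dSAP (27.7) than in 2D control (14.2). LCN2, an iron-carrier protein, fell in dSAP (-2.20 ± 0.14 in 2D, -2.12 ± 0.15 in 3D) and rose in 3D dSRF (3.42 ± 0.14). Its mean TPM was also higher in 2D dSRF (2220) than in 2D control (245). In WT it was lower than in control, at 131 TPM in 2D and at 48.4 against 127 TPM in 3D. LIF, an interleukin-6 family cytokine, rose in dSRF (1.76 ± 0.08 in 2D, 2.71 ± 0.08 in 3D), and ICAM1, an adhesion receptor, rose in 2D dSRF (1.54 ± 0.07). Mean ICAM1 was also higher in 3D dSRF (536 TPM) than in 3D control (245 TPM). In 3D dSRF without 3D dSRF 1, C3 was at -2.55 ± 0.07, LCN2 at 3.44 ± 0.14 and LIF at 2.76 ± 0.07. From 2D to 3D in control 14 rose and 10 fell (median 0.43), beside 47.4% of all genes called. In dSRF 9 rose and 2 fell, beside 17.0%, or 12 rose and 17 fell without 3D dSRF 1, beside 48.2%.

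**Figure D4:**
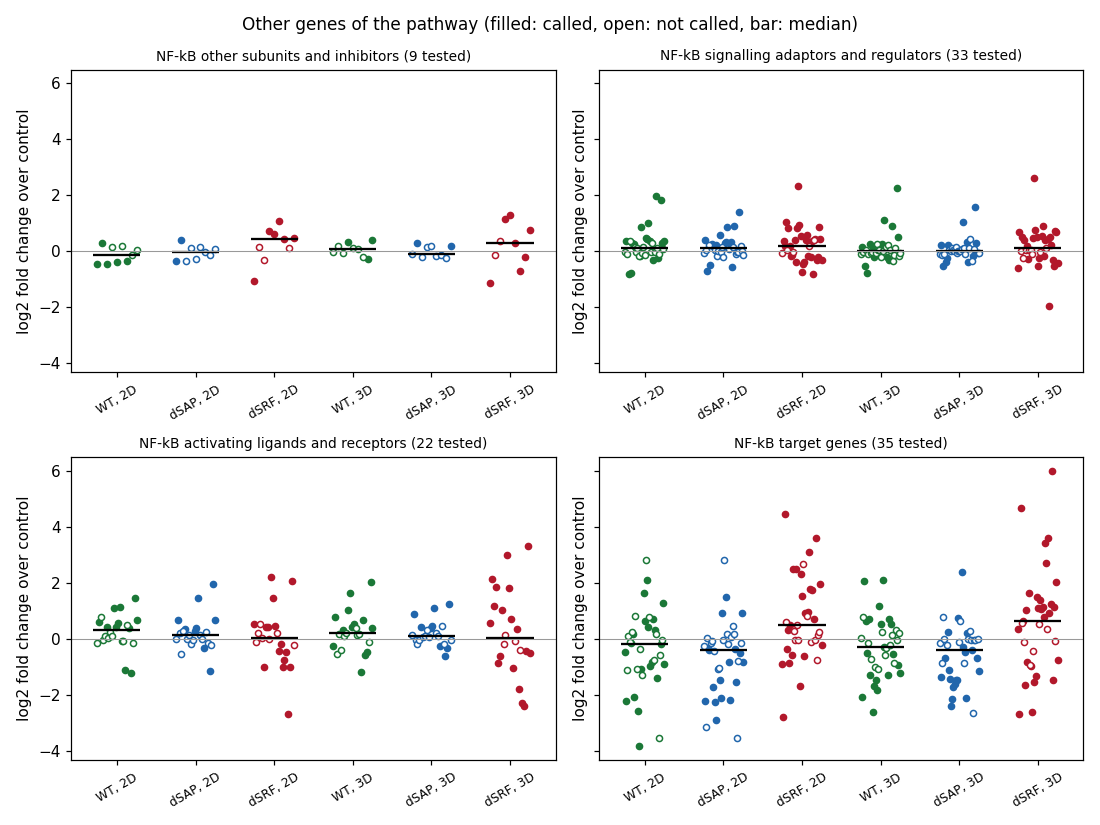
Each panel is 1 of the 4 lists, with the log2 fold change over control of the same culture on the vertical axis and the 6 line and culture combinations on the horizontal axis. Filled points are genes called by edgeR at an adjusted p under 0.05, open points are genes not called, and the bar is the median of the list. The median of the target genes lies at -0.42 in 2D dSAP and at 0.48 in 2D dSRF.

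Across the 8 group means of log2 CPM the members fell into patterns, given here as a description over groups that share lines and cultures, with the value without 3D dSRF 1 after each. NFKB1 and NFKBIA followed each other most closely (Pearson r = 0.981 over 8 groups, 0.972 without), and RELB followed NFKB2 (0.975 and 0.961), NFKB1 (0.953 and 0.960), NFKBIA (0.953 and 0.960) and TRAF1 (0.909 and 0.900). BIRC3 followed NFKBIZ (0.840 and 0.873) and TNFAIP3 (0.807 and 0.851), and had negative r with NFKB2 (-0.364 and -0.312) and RELB (-0.325 and -0.383). TRAF1 and TNFAIP3, which both rose in 2D WT and dSAP, had r = 0.069 (-0.019 without). Among all genes tested with a symbol, the 3 with the pattern nearest to NFKB1 were PLSCR1 (0.990 and 0.987), IKBKE (0.989 and 0.978) and SYCP2 (0.989 and 0.958). IKBKE, a kinase related to the IkB kinases, was also near NFKBIA (0.993 and 0.994), after NADK2 (0.994 and 0.993). IFIH1, an RNA sensor, was nearest to NFKB2 with all libraries (0.988) but less so without 3D dSRF 1 (0.928). The genes nearest with all libraries were CABIN1 for RELB (0.996 and 0.982), TRIM16 for TRAF1 (0.998 and 0.980), PBX3 for BIRC3 (0.993 and 0.992), SAP30 for NFKBIZ (0.962 and 0.956), RPS6P25 for NFKBIE (0.987 and 0.924) and STARD5 for TNFAIP3 (0.976 and 0.877). Of these 9 nearest genes, PLSCR1 and PBX3 remained the nearest without that library.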

How the data were processed

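The 24 RNA-seq libraries were stranded and depleted of ribosomal RNA, per the labels' protocols. The molecule field instead names polyA RNA. Per the submitters' processing notes, the authors used FastQC and Salmon (version 11.3 as written) with hg38. Which annotation they counted on is not stated there. The authors deposited estimated counts per gene, which are not whole and were rounded here, and TPM values per gene. Gene ids were given symbols with the name table supplied beside the data (29235 of 37247 matched) and positions with GENCODE 29.

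Genes were kept with filterByExpr, and 1 edgeR 4.0.16 model (R 4.3.3) of the 8 groups taken from the titles was fitted to all 24 libraries with TMM scaling (factors 0.890 to 1.09) and a robust quasi-likelihood fit (16 residual degrees of freedom, common biological coefficient of variation 13.1%). P-values of the 19 comparisons were adjusted over all 14986 genes tested. The fitting script was tested on simulated data. Standard errors are the log2 fold change over the square root of the F statistic. The rule for named genes was all members, MRTFA, up to 4 called genes of lowest p per list and comparison, and the 3 genes most alike each member in mean log2 CPM (prior count 2). AL357060.1 and the marker genes of the checks, chosen after their values were seen, stand outside it. The members and lists were chosen with earlier results of these data known. The alternatives tried were DESeq2 1.42.0, limma 3.58.1 on log2(TPM + 1) and log2(TPM + 0.1), a fit without the filter on low counts, RLE size factors, a replicate block, only the libraries compared, and each library left out in turn. The pattern correlations without 3D dSRF 1 were added after seeing the data. Figures were drawn with matplotlib 3.10.9.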

Additional observations from a re-analysis of the deposited data

Results flagged for a closer look

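In all, 8 of 27 culture effects differed between an induced line and control by a test of the difference itself, edgeR's interaction term. They were 2 of 9 in WT, 0 of 9 in dSAP and 6 of 9 in dSRF, beside 9.18%, 2.34% and 29.2% of all genes called. In WT, the log2 change from 2D to 3D was lower than in control for TNFAIP3 (-1.43) and TRAF1 (-0.56). In dSRF it was lower for TRAF1 (-1.45), TNFAIP3 (-1.30), BIRC3 (-1.27), NFKBIA (-0.75), NFKB1 (-0.55) and RELB (-0.45). Those of dSRF are as large or larger without the library 3D dSRF 1 for TRAF1, TNFAIP3, BIRC3 and RELB (-0.53), and smaller for NFKBIA (-0.55) and NFKB1 (-0.54). Some of these calls were lost under alternatives. That of TNFAIP3 in WT was lost with any 1 of the 12 libraries compared left out, and that of TRAF1 in WT with any of 8. That of TNFAIP3 in dSRF was lost with any of 9, with no filter (edgeR adjusted p = 0.0894) and with only the libraries compared (0.160). That of BIRC3 in dSRF was lost with only the libraries compared (edgeR adjusted p = 0.0727).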

How the results depend on the processing

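Of 96 member and comparison pairs called, 74 were called under every alternative run. The other 22 were BIRC3, NFKBIE (dSRF, 2D), TNFAIP3 (dSAP, 2D), NFKB2, NFKBIA, TNFAIP3 (dSRF, 3D), NFKBIZ (dSAP, 3D) and TRAF1 (WT, 3D) over control, NFKBIZ and TNFAIP3 in dSAP over WT (2D), NFKB2 and TNFAIP3 in 3D dSRF over WT, NFKB2, NFKBIZ and TNFAIP3 in 3D dSRF over dSAP, NFKB1 (dSRF), NFKBIE and NFKBIZ (dSAP) in 3D over 2D, and the interactions of TNFAIP3 and TRAF1 (WT) and BIRC3 and TNFAIP3 (dSRF). Counts of pairs called were 20 of 27 (lines over control, 2D), 14 of 27 (3D), 34 of 54 (induced lines against each other), 20 of 36 (3D over 2D) and 8 of 27 (interactions). They were 20, 14, 33, 20 and 8 with RLE size factors, 20, 14, 35, 20 and 8 with DESeq2, 18, 13, 33, 23 and 8 on log2 TPM with either pseudocount, 17, 13, 31, 20 and 6 with no filter and 24, 15, 38, 25 and 12 with only the libraries compared. With each library left out they ranged from 17 to 25, 12 to 19, 31 to 41, 19 to 32 and 5 to 15. Without 3D dSRF 1 they were 25, 19, 41, 32 and 15, and 5 interactions were called without 2D control 2, 2D control 3, 3D control 2 or 3D control 3. Replicate numbers did not pair libraries: of 84 same-numbered pairs, 2 had a correlation of deviations above 0.1 (median -0.0119), and a replicate block gave 20, 14, 34, 20 and 8 calls and changed no call of the 171 pairs. Directions turned as follows, in uncalled differences unless an adjusted p is given, and the cause was not tested. On log2(TPM + 1) and log2(TPM + 0.1) the values were 0.072 and 0.073 (NFKB1, dSAP over WT, 3D), -0.042 and -0.040 (NFKB1, WT interaction), 0.0012 and 0.0012 (NFKB2, dSAP over WT, 2D), -0.053 and -0.054 (NFKB2, 3D over 2D, dSRF), 0.13 and 0.13 (RELB, dSAP over WT, 2D), 0.088 and 0.089 (RELB, the same in 3D), and 0.0095 and 0.0094 (NFKBIZ, 3D over 2D, dSRF). With each library left out, the lowest value (without 3D dSRF 1) and the highest (without 3D dSRF 2 or 3) of dSRF in 3D over 2D were -0.099 and 0.18 (NFKB2), -0.056 and 0.12 (RELB), -0.14 and 0.12 (NFKBIE, edgeR adjusted p = 0.0207 for the lowest), -0.36 and 0.87 (TNFAIP3, 5.43e-04), -0.22 and 0.12 (TRAF1, 0.00122) and -0.60 and 0.28 (BIRC3, 3.12e-09). NFKBIA ran from -0.070 without 3D dSRF 2 to 0.25 without 3D dSRF 1 (adjusted p = 2.73e-06). NFKB2 in the dSRF interaction ran from -0.17 to 0.12, and NFKBIE in 3D dSRF from -0.11 to 0.15 over control (adjusted p = 0.0415 for the lowest), -0.039 to 0.22 over WT and -0.10 to 0.16 over dSAP.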
